A study of Drosophila melanogaster with 48 samples.

Results

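The mitochondrial ribosomal protein genes of Drosophila melanogaster were followed through the differentiation of testis germ cells. They were chosen by name, as every gene whose symbol in the deposited files starts with mRp. The rule found 72 genes, 46 named for the large subunit (mRpL) and 26 for the small subunit (mRpS), among 11029 genes in the lysate files and 11997 genes in the gradient files. All 72 had reads in lysate. In the gradient files mRpL13 shares its entry with CG10602, which left 71 genes for tests there.

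Mitochondria carry their own ribosomes, which make the few respiratory chain proteins encoded in mitochondrial DNA. The proteins of these ribosomes are encoded in the nucleus, made on cytoplasmic ribosomes and imported into the organelle, so their mRNAs are read here on cytoplasmic polysomes. In the fly testis, spermatogonia divide, become spermatocytes that grow and transcribe a large testis-specific programme, and the mitochondria of the later spermatid fuse into a single body that drives the elongating tail.

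All libraries came from whole testes of flies of the genotype bam-/-;hsBam. The gene bam is needed for spermatogonia to stop dividing and become spermatocytes, and in these flies the endogenous gene is mutant and a copy under a heat shock promoter can be switched on. Flies were grown at 22 °C, the pupae were heat shocked for 30 min at 37 °C, and they were then kept at 25 °C. Total lysate was taken at 0, 16, 24, 32, 48 and 72 h after the shock. Gradient pools were taken at 24, 48 and 72 h and named free, 40S, 60S, 80S, 2-3 and 4+, the last of them after the number of ribosomes on the mRNA. Each group had 2 libraries that the labels call biological replicates, which gave 12 lysate and 36 gradient libraries. All groups carried the same genotype and the same shock, so time after the bam pulse cannot be told apart from age or from recovery after the shock.

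Lysate libraries held 12.04 to 20.7 M listed reads (median 15.7) and gradient libraries 0.445 to 9.57 M (median 5.53). The lowest was replicate 2 of the 60S pool at 72 h, which listed 4 of the mRp genes and was left out of the mean of that pool. Replicates stood farther apart at 0 h than later. At 0 h 21 of 65 mRp genes differed over 2-fold between replicates, 7 of them higher in replicate 2, against 25.1% of all genes, and from 24 h on no mRp gene did. The 0 h libraries also lacked whole stretches of the X chromosome, a different one in each, so mRpL3, mRpL22, mRpL30, mRpL33, mRpS14 and mRpS30 had a single 0 h value.

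Reads come from the 3′ end of each transcript, 1 tag per molecule, so levels in CPM (reads of a gene per M reads of the library) can be set side by side between genes without correction for length. CPM were scaled by trimmed means. Over the 6 times the mRp genes averaged from 8.65 CPM (mRpS5) to 206.5 CPM (mRpL34), with a median of 77.9 CPM. Together they took 0.483% and 0.385% of lysate reads at 0 h, 0.611% and 0.561% at 16 h, 0.572% and 0.643% at 24 h, 0.736% and 0.733% at 32 h, 0.811% and 0.909% at 48 h, and 0.511% and 0.520% at 72 h. This unscaled share was highest at 48 h in both replicates and at 72 h lay above both 0 h libraries and below all libraries of 16 to 48 h. The 0 h libraries lacked 4 and 2 mRp genes in the missing X stretches. Scaled CPM summed over the family were 6673 and 4838 at 0 h, 6828 and 6997 at 48 h, and 6052 and 5963 at 72 h. On that scale the 72 h libraries lay between the 0 h replicates.

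The most abundant genes came from both subunits. mRpL34, the counterpart of a small bacterial large-subunit protein, averaged 290 ± 151 CPM at 0 h, 200 ± 24.8 CPM at 48 h and 154 ± 12.4 CPM at 72 h (SD, n = 2 each). mRpS16, a conserved small-subunit protein, averaged 227 ± 99.2 CPM at 0 h, 216 ± 11.4 CPM at 48 h and 184 ± 19.6 CPM at 72 h (SD, n = 2 each). mRpS26, a small-subunit protein found only in mitochondrial ribosomes, averaged 132 ± 36.9 CPM at 0 h, 255.5 ± 11.6 CPM at 48 h and 235 ± 29.5 CPM at 72 h (SD, n = 2 each). mRpL12, the stalk protein that recruits translation factors, averaged 230 ± 77.01 CPM at 0 h, 172 ± 17.4 CPM at 48 h and 162 ± 8.15 CPM at 72 h (SD, n = 2 each). At 48 and 72 h both libraries of mRpS26 lay above every library of the other 3 genes. At 0 h it had 158 and 106 CPM and the lowest mean of the 4, and the replicates of the other 3 overlapped. The lowest were mRpS5, mRpL13, mRpL35 and mRpL50, with means at 72 h of 7.36, 17.1, 17.8 and 17.9 CPM. mRpS5 was unlisted in replicate 1 at 0 h.

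Most of the family kept to a narrow range. The highest of the 6 time means exceeded the lowest by 1.19-fold to 3.62-fold, with a median of 1.81-fold, and 47 of 72 genes stayed under 2-fold. The largest ranges belonged to mRpL44, mRpL36, mRpS18B and mRpL10, and the smallest to mRpL13, mRpL4, mRpL42 and mRpL27. The time of the highest mean was 48 h for 20 genes, 32 h for 16, 72 h for 16, 0 h for 14, 16 h for 4 and 24 h for 2. The lowest mean fell at 72 h for 27 genes and at 0 h for 19.

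**Figure D1:**
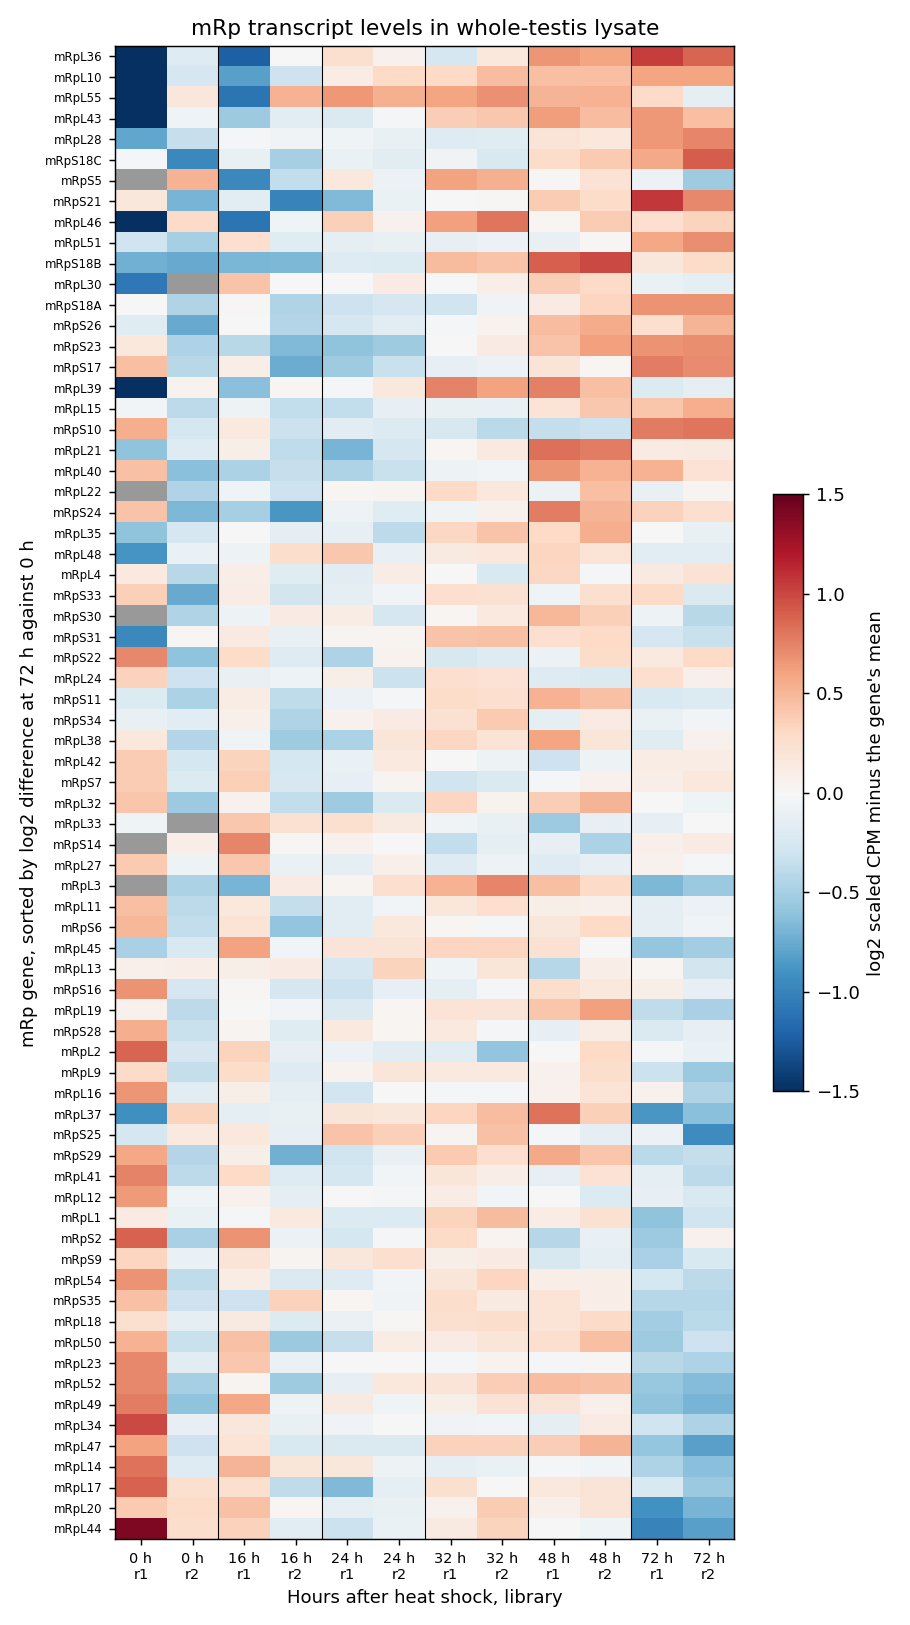
Level of the 72 mRp genes in the 12 lysate libraries, 1 row per gene and 1 column per library in order of time, coloured by the log2 difference of scaled CPM from the mean of that gene. Rows are sorted by the change at 72 h against 0 h, from mRpL36 at the top to mRpL44 at the bottom. Grey cells mark values missing at 0 h and the library in which mRpS5 was unlisted; colours stop at 1.5 either way.

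The comparison of each later time with 0 h asked which mRp genes moved as the germ cells differentiated. No mRp gene passed the threshold (limma, Benjamini-Hochberg adjusted p under 0.05 over 10339 genes) at 16 or 24 h. Of all genes 0.542% were called higher and 0.59% lower at 16 h, and 1.08% higher and 1.09% lower at 24 h. At an unadjusted p under 0.05 in limma there were 5 mRp genes at 16 h and 11 at 24 h. Of all 10339 genes 1286 and 1838 were under that cut. At 32 h 3 mRp genes had risen and none had fallen, against 7.85% and 5.79% of all genes. At 48 h 18 had risen and 1 had fallen, against 32.2% and 15.6% of all genes. At 72 h 13 had risen and 6 had fallen, against 35.4% and 12.9% of all genes.

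The median change of the family, on the log2 scale, stayed near that of all genes. It was 0.19 at 32 h, 0.27 at 48 h and 0.03 at 72 h, against −0.10, 0.30 and 0.31 for all genes. Set against the median of all genes the family stood 0.28 above it at 32 h, 0.03 below at 48 h and 0.28 below at 72 h. Scaling by total counts or by median ratios shifts every gene of a comparison alike, so these offsets cannot test it. The zero itself moved: with total counts the median of all genes at 48 h was 1.01. With total counts 36 mRp genes had risen and none had fallen at 32 h, 48 and none at 48 h, and 16 and 3 at 72 h. Of all genes 2646, 5510 and 4817 were then called at these times, 93.7%, 92.1% and 80.7% of them higher. With median ratios the splits were 5 and none, 19 and none, and 14 and 3. The calls among all genes were then 1402, 4903 and 4895, of which 58.5%, 69.1% and 77.2% were higher. In bulk testis, fewer cells of a type and less RNA per cell cannot be told apart.

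**Figure D2:**
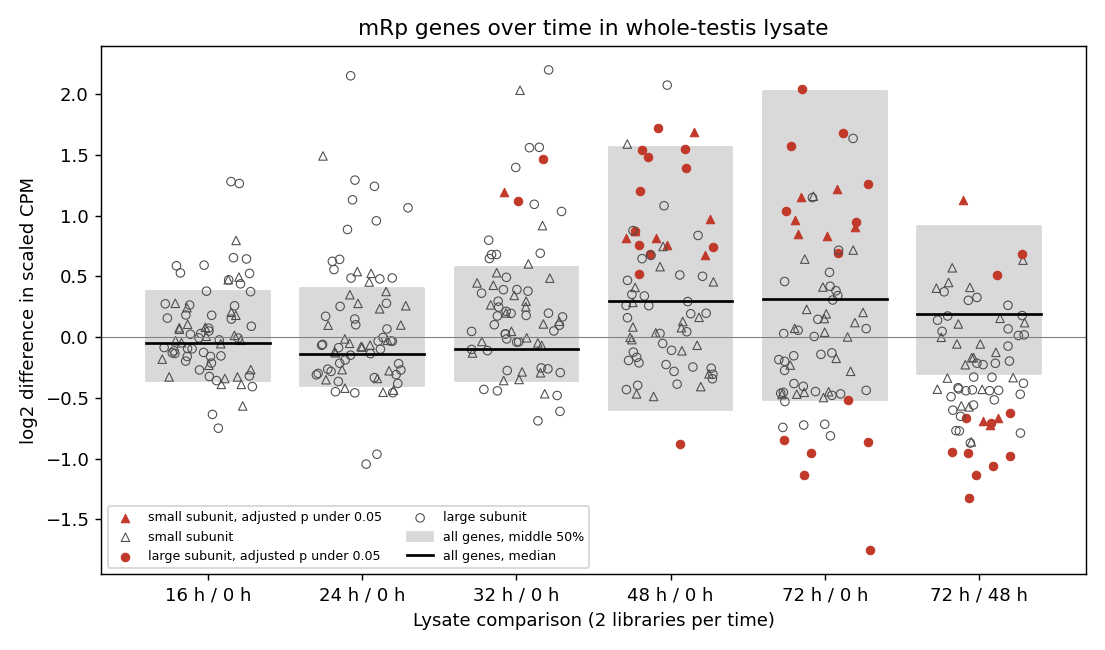
Change of each mRp gene in lysate on the log2 scale at each later time against 0 h, and at 72 h against 48 h, with filled points for genes past the threshold, a line at the median of all genes and a grey box over their middle 50%. At 72 h against 0 h, 13 genes lie above and 6 below among the called ones, and at 72 h against 48 h, 3 above and 12 below.

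The 3 genes called at 32 h were mRpS18B, mRpL30 and mRpL10, with log2 changes of 1.19, 1.12 and 1.47. mRpS18B, a small-subunit member of the S18 family, had 60.3 and 58.9 CPM at 0 h, 62.1 and 62.5 at 16 h, 86.9 and 86.3 at 24 h, 138 and 134 at 32 h, 186 and 198 at 48 h, and 112 and 120 at 72 h. Its replicates were close at every time and did not overlap between 0 h and any time from 16 h on. Of the 3 calls at 32 h, that of mRpS18B alone held when each library was left out in turn. mRpL10, which anchors the stalk of the large subunit, had 23.8 and 73.9 CPM at 0 h, then 50.2 and 71.1, 95.5 and 108, 109 and 122, 120 and 121, and 133 and 133 CPM at the 5 later times. Without replicate 1 of 0 h its change at 32 h was 0.65 (limma, adjusted p = 0.118). mRpL30 had 41.5 CPM in its single 0 h value and 78.9 to 117 CPM in all later libraries.

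By name, all 6 called mRpS genes had risen (6 of 26), and the mRpL genes were split, 7 risen and 6 fallen of 46. The median change was 0.17 for mRpS and −0.15 for mRpL genes. This difference was not tested, and a name need not give the subunit, as for mRpS18A and mRpS30, whose mammalian counterparts sit in the large subunit. The 13 that rose were mRpL36, mRpL10, mRpL43, mRpL28, mRpS18C, mRpS21, mRpL51, mRpS18B, mRpL30, mRpS18A, mRpS26, mRpS23 and mRpL15.

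mRpL36, the counterpart of the smallest bacterial large-subunit protein, had 112 and 100 CPM at 72 h, against 14.1 and 48.1 CPM at 0 h. Its log2 change was 2.04 (SE 0.50, limma adjusted p = 0.00725). The 0 h replicates stood over 3-fold apart and both lay below all libraries from 48 h on. mRpL28, of the conserved core of the large subunit, had 74.4 and 78.5 CPM at 72 h, against 27.6 and 37.3 CPM at 0 h, and its change of 1.26 had a small error (SE 0.19, limma adjusted p = 0.000344). The 4 libraries of 48 and 72 h were the highest for mRpL28. mRpL51, a large-subunit protein particular to mitochondria, had 141 and 152 CPM at 72 h, against 76.5 and 66.4 CPM at 0 h (log2 change 1.03, limma adjusted p = 0.00114), and at 48 h it was still at 87.0 and 94.9 CPM. mRpL43, also particular to mitochondria, had 186 and 162 CPM at 72 h, against 31.0 and 114 CPM at 0 h, and mRpS21, a small basic protein, had 73.0 and 57.7 CPM, against 39.3 and 21.5 CPM. The groups did not overlap for either gene, which the choice of named genes required.

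The genes mRpS18A, mRpS18B and mRpS18C are 3 paralogues of bacterial S18; in mammals the S18A protein sits in the large subunit and the other two in the small subunit. All had risen at 72 h, by different courses. mRpS18A (FBgn0051450, dm6 3R:8561917-8562593, minus strand) had 208 and 209 CPM at 72 h, against 130 and 95.3 CPM at 0 h, and most of its change came after 32 h (106 and 126 CPM). mRpS18B (FBgn0032849, 2L:20096329-20097253, minus strand) peaked at 48 h. mRpS18C (FBgn0039765, 3R:30423974-30424556, plus strand) had 124 and 157 CPM at 72 h, against 83.0 and 42.8 CPM at 0 h. The log2 changes at 72 h were 0.90 (SE 0.21, adjusted p = 0.00594), 0.96 (SE 0.15, adjusted p = 0.000483) and 1.22 (SE 0.28, adjusted p = 0.0055) in limma. Between 48 and 72 h mRpS18B fell by 0.72 (limma adjusted p = 0.00264), while the changes of mRpS18A (0.45) and mRpS18C (0.40) did not pass.

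The 6 genes that fell at 72 h all encode large-subunit proteins: mRpL44, mRpL20, mRpL17, mRpL14, mRpL47 and mRpL18. mRpL44 (FBgn0037330, 3R:5469463-5470636, minus strand), a protein with a ribonuclease III fold, had 37.7 and 43.0 CPM at 72 h, against 201 and 91.3 CPM at 0 h. Its log2 change was −1.75 (SE 0.36, limma adjusted p = 0.00253) and it had the lowest value of the 6 times in both replicates. mRpL20, whose bacterial counterpart acts early in assembly of the large subunit, had 44.8 and 52.1 CPM at 72 h, against 111 and 102 CPM at 0 h, and was still at 89.1 and 96.4 CPM at 48 h. mRpL14, a conserved protein at the interface of the subunits, had 52.7 and 47.1 CPM at 72 h, against 128.0 and 63.7 CPM at 0 h. mRpL47, the mitochondrial L29 at the exit of the peptide tunnel, had 46.2 and 39.4 CPM, against 105 and 55.9 CPM. mRpL18, of the family that binds 5S rRNA in bacteria, had 101 and 110 CPM, against 171 and 132 CPM, and mRpL17 had 63.2 and 50.4 CPM, against 137 and 87.6 CPM. The groups did not overlap for any of the 6, but replicate 1 of 0 h was the higher in each.

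That library decided several of these calls. Without it the changes were −0.34 for mRpL14, −0.62 for mRpL17, −0.32 for mRpL18 and −0.38 for mRpL47, with limma adjusted p of 0.244, 0.12, 0.201 and 0.234. Leaving out each library in turn, 9 of the 19 calls at 72 h held throughout: mRpL10, mRpL28, mRpL36, mRpL51, mRpS18A, mRpS18B and mRpS18C as risen, mRpL20 and mRpL44 as fallen. At 48 h 6 of 19 held, namely mRpL10, mRpL21, mRpL30, mRpS11, mRpS18B and mRpS26. Which replicate of 0 h was left out also changed the number of calls at 48 and 72 h, with a single library then standing for 0 h.

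Both times of 48 and 72 h had close replicates and no missing stretches, so they were also compared with each other, a comparison chosen after the values had been seen. At 72 h 3 mRp genes were higher and 12 lower than at 48 h, against 24.1% and 6.0% of all genes, and the family's median change was −0.33 against 0.19 for all genes. The offset of −0.52 cannot test the scaling, which shifts every gene alike. With total counts the split was 0 higher and 44 lower. Of all genes 3992 were then called, 44.9% of them higher. mRpS10, a conserved small-subunit protein, had 97.9 and 99.0 CPM at 72 h, against 44.4 and 45.4 CPM at 48 h (log2 change 1.13, SE 0.25, limma adjusted p = 0.0068). mRpL51 and mRpL28 were the other two that rose, by 0.68 and 0.51. mRpL28 reversed with total counts, at −0.025 (limma adjusted p = 0.935).

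The 12 that fell between 48 and 72 h were mRpL37, mRpL47, mRpL52, mRpL3, mRpL19, mRpL20, mRpS18B, mRpL18, mRpS11, mRpS30, mRpL21 and mRpL1, 9 of them named for the large subunit. mRpL37, a large-subunit protein particular to mitochondria, had 21.8 and 25.8 CPM at 72 h, against 70.2 and 51.1 CPM at 48 h (log2 change −1.32, SE 0.34, limma adjusted p = 0.0155). mRpL19, a conserved protein at the subunit interface, had 99.2 and 92.1 CPM, against 173 and 198 CPM (log2 change −0.96, SE 0.18, limma adjusted p = 0.00294). mRpL3, which reaches toward the peptidyl transferase centre, had 23.1 and 25.1 CPM, against 50.5 and 45.1 CPM. In all 3 genes the replicates of the times did not overlap. With each library left out in turn the count ran from 3 to 5, with a single library standing for a time, and mRpL19 and mRpS18B held throughout.

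The 2 mitochondrial ribosomal proteins with other names had lower means at 72 h as well, short of the threshold. bonsai, the S15 protein, had 124 and 120 CPM at 72 h, against 242 and 144 CPM at 0 h, and tko, the S12 protein, had 30.8 and 29.9 CPM, against 92.9 and 36.8 CPM. Their log2 changes were −0.62 and −0.95 (limma adjusted p = 0.0618 and 0.0976). bonsai passed in the comparison of 72 h with 48 h, where its log2 change was −0.81.

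Other mitochondrial gene lists were read beside the family. Of 8 tested translation and assembly factors 2 rose and 1 fell at 72 h; mtTFB1, a methyltransferase of mitochondrial ribosomal RNA, rose with 174 and 193 CPM at 72 h, against 79.8 and 83.0 CPM at 0 h (log2 change 1.17, limma adjusted p = 0.000325). Of 5 genes for mitochondrial DNA and its transcription none rose and 3 fell, among them mtSSB, which coats single-stranded mitochondrial DNA, with 55.1 and 69.0 CPM against 257 and 116 CPM. Of 22 protein import genes 16 rose and none fell (median 1.495). However, 10 of the 22 were unlisted in both 0 h libraries, so the size of their changes depends on the 10 reads entered there. Among the most abundant import genes mge rose (1.67), while Tom7 (−0.29) and Tim8 (0.05) did not pass. Of 91 cytoplasmic ribosomal protein genes 3 rose and 65 fell (median −0.88). Only 12 of 91 respiratory chain genes were matched by name in lysate, of which 2 rose and 3 fell, and no mitochondrial aminoacyl-tRNA synthetase was matched there.

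Markers of cell types were read in the same libraries. All 13 tested spermatocyte genes had risen at 72 h, and their summed level was 82.7 and 65.0 CPM at 0 h, 1414 and 1436 CPM at 48 h, and 974 and 1111 CPM at 72 h. Of 9 early germ cell genes 2 fell at 72 h (summed level 194 and 193 CPM, against 303 and 294 CPM at 0 h). Among markers of other cells, 1 of 10 cyst cell genes rose and 2 fell, 2 of 14 muscle genes rose and 3 fell, 0 of 11 fat body and haemolymph genes rose and 2 fell, and 2 of 6 neuron genes rose. Summed muscle levels ran from 1119 to 2427 CPM over the 12 libraries and fat body levels from 586 to 2177 CPM, both highest at 16 or 24 h. Of these markers 1 of 15 muscle, 3 of 12 fat body and 3 of 8 neuron genes were unlisted in both libraries at 72 h. The part of these cells in the changes of the mRp genes was not tested.

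The gradient pools show where an mRNA sits in a sucrose gradient: free of ribosomes, with the small or large subunit, with a single ribosome (80S), or with 2 to 3 or at least 4 ribosomes. Each pool was scaled to itself, so the values compare genes within and between pools but do not give the amount of RNA in a pool. At 24 h 26 of 71 mRp genes had their highest scaled level in the 80S pool, 24 in the 2-3 pool, 17 in the 4+ pool and 1 in the free pool. At 48 h the counts were 24 in the 2-3 pool, 15 in 40S, 13 in free, 11 in 4+ and 8 in 80S. At 72 h 34 genes were highest in the free pool, 15 in 4+ and 14 in 2-3. The share highest in the free pool at 72 h was 47.9% of the mRp genes, against 24.0% of all genes. All genes here include those with few reads and were not matched to the mRp genes in level. The order of pools depends on the scaling, whose factors were 0.514 and 0.666 in the free libraries of 72 h. As an unscaled share of listed reads the mRp genes together took 0.818% and 0.697% in the free pool at 72 h, 0.902% and 0.816% in 80S, 1.04% and 0.958% in 2-3, and 0.922% and 0.745% in 4+.

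The scaled level in the free pool, as a percentage of the sum over the 6 pools, had a median of 12.7% at 24 h, 17.2% at 48 h and 22.7% at 72 h over the mRp genes. For all genes, again not matched in level, it was 15.1%, 14.7% and 15.3%. At 72 h 16 of 26 small-subunit genes and 18 of 45 large-subunit genes were highest in the free pool.

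**Figure D3:**
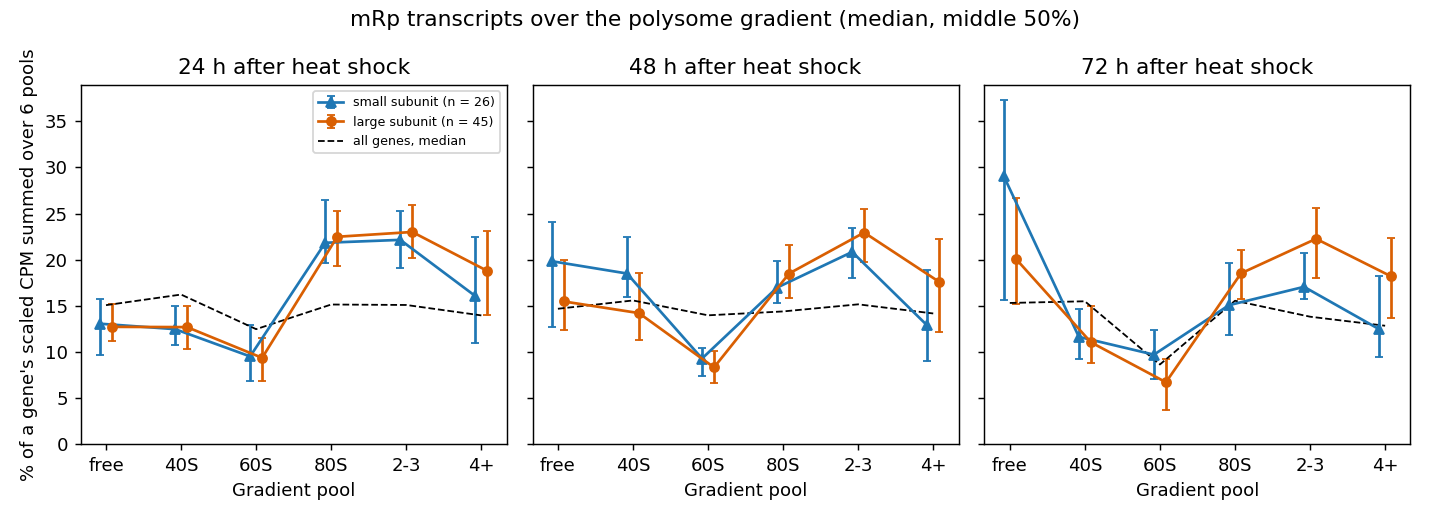
Median share of each of the 6 gradient pools in the summed scaled level at 24, 48 and 72 h, as a percentage, for small-subunit genes, large-subunit genes and all genes (dashed); bars span the middle 50% of the mRp genes. The free pool holds 22.7% at 72 h for the mRp genes together, against 15.3% for all genes, which were not matched in level.

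The 4+ pool was compared with the free pool to ask which mRNAs were on large polysomes, with limma over 10777 genes and all 36 libraries sharing 1 estimate of spread. At 24 h 3 of 71 mRp genes were higher in 4+ and 1 was lower, against 1.09% and 5.38% of all genes. At 48 h 2 were higher and 7 lower, against 2.09% and 8.76%. At 72 h 2 were higher and 10 lower, against 6.5% and 20.1% of all genes. The median log2 difference of the family was 0.57 at 24 h, −0.19 at 48 h and −0.67 at 72 h, against −0.55, −0.22 and −0.29 for all genes.

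Relative to the median of all genes the family stood 1.12 above at 24 h, 0.03 above at 48 h and 0.38 below at 72 h. The all-gene median of −0.55 at 24 h is the value that genes unlisted in both pools take from the 5 reads entered for them. The 1.12 therefore sets the family against unlisted genes and does not measure how far it exceeds measured genes. A scaling shifts every gene of a comparison alike, so these offsets cannot test it. The calls did change with the scaling. With total counts 28 were higher and 1 lower at 24 h, 25 and 4 at 48 h, and 24 and 4 at 72 h, and the family's median at 72 h was 0.29. Of all genes 1492, 2383 and 4269 were then called, 76.4%, 74.3% and 65.1% of them higher. With median ratios the splits were 6 and 1, 6 and 7, and 3 and 18. The calls among all genes were then 733, 1297 and 3084, of which 39.4%, 29.3% and 23.5% were higher. Without the 60S pools, which include the library of 0.445 M reads, 23 mRp genes were called at 24 h (18.9% of all genes), 30 at 48 h (24.9%) and 38 at 72 h (42.4%).

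The genes that were lower in 4+ at 72 h were mostly short, 7 of 10 under 150 codons. mRpS21 had 20.4 and 17.2 CPM in the 4+ pool at 72 h, against 256 and 139 CPM in the free pool (log2 difference −3.34, SE 0.62, limma adjusted p = 0.00018). mRpS24, the mitochondrial S3, had 49.7 and 38.2 CPM in 4+, against 530 and 330 CPM in free (−3.26, SE 0.59, limma adjusted p = 0.000115). mRpL42, a protein particular to mitochondria, had 84.2 and 55.6 CPM in 4+, against 729 and 459 CPM in free (−3.08, SE 0.64, limma adjusted p = 0.000602). The pools did not overlap in any of these, and their calls held when each library was left out in turn.

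The other 7 lower genes at 72 h were mRpS18A (−2.87), mRpL34 (−2.11), mRpS33 (−1.93), mRpS18C (−1.61), mRpL55 (−1.59), mRpL10 (−1.55) and mRpL33 (−1.52). mRpL34, the most abundant member in lysate, was low in the 4+ pool at all 3 times. It had 32.9 and 68.6 CPM in 4+, against 207 and 274 CPM in free, at 24 h. At 48 h the values were 59.5 and 53.7 CPM against 472 and 305 CPM, and at 72 h 118 and 80.8 CPM against 443 and 401 CPM. The call came at 48 h (−2.75) and 72 h. For mRpL42 and mRpS21 the 4+ pool lay below the free pool at each time as well.

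The genes higher in 4+ were long. mRpL45, whose mammalian counterpart ties the ribosome to the inner membrane, had 189 and 133 CPM in 4+ at 72 h, against 38.5 and 47.1 CPM in free (log2 difference 1.90, SE 0.54, limma adjusted p = 0.00973). mRpL19 had 354 and 244 CPM, against 132 and 92.8 CPM, and was called at 24 h (1.90) and 72 h (1.41). mRpL28 was called at 24 h (1.70) and 48 h (1.52); it had 93.0 and 76.5 CPM in 4+ at 24 h, against 24.3 and 27.8 CPM in free. mRpS35, a small-subunit protein particular to mitochondria, was called at the same times (1.92 and 1.77). mRpL44, mRpS30 and mRpL9 followed at 72 h with log2 differences of 1.72, 1.62 and 1.23, and did not pass (limma adjusted p = 0.0526, 0.0652 and 0.0802). These calls in 4+ were each lost when some library was left out.

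The 4+ pool was also compared with the 80S pool, which holds single ribosomes on an mRNA. None of the mRp genes was higher in 4+ at any time, and 6 were lower at 24 h, 2 at 48 h and 3 at 72 h. Of all genes 0.288%, 0.186% and 0.909% were higher and 2.93%, 2.47% and 5.67% lower at the 3 times. With total counts the splits were 2 higher and 6 lower, 12 and 2, and 2 and 3. Of all genes 697, 1275 and 1040 were then called, 59.5%, 84.2% and 39.4% of them higher. With median ratios the split at 24 h was 1 and 5, and 363 of all genes were called, 34.2% of them higher. mRpL34 was lower at every time, with log2 differences of −3.61, −3.17 and −2.87, and had 832 and 606 CPM in the 80S pool at 72 h. mRpL33, another very short large-subunit protein, was lower at every time as well, with differences of −2.34, −2.47 and −2.30. None of the 6, 2 and 3 calls held when each library was left out in turn, and those of mRpL34 reached limma adjusted p of 0.0958, 0.158 and 0.126. The others at 24 h were mRpS33, mRpL42, mRpS21 and mRpL52, and mRpL42 was lower again at 72 h. At the other end at 24 h stood mRpL3, mRpL46, a protein with a Nudix fold, and mRpL39, a relative of threonyl-tRNA synthetase, at 1.68, 0.99 and 0.98, short of the threshold.

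These differences followed coding length. mRpL33, mRpL34 and mRpS21 have 64, 81 and 87 codons, mRpL42 has 124, and the genes high in 4+ have 302 (mRpL28), 306 (mRpL19), 326 (mRpS35) and 361 (mRpL45). Over 71 mRp genes the Spearman correlation of codons with the 4+ over free difference was 0.57 at 24 h, 0.69 at 48 h and 0.65 at 72 h, and with the 4+ over 80S difference 0.61, 0.67 and 0.67. Over 10361 genes the same correlations were 0.17, 0.37 and 0.43, and 0.26, 0.30 and 0.19. At 24 h the genes unlisted in both pools share a single value, so these are not correlations of measured genes alone. The size of the mRp correlations beside them therefore does not show a relation particular to the family. The points of a correlation share libraries and scaling, and genes are not replicates. As background, a short coding region has room for few ribosomes.

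By length class, the 14 mRp genes under 150 codons had median 4+ over free differences of −0.97, −1.42 and −1.56 at 24, 48 and 72 h. For all 1354 genes of that class the medians were −0.55, −1.80 and −2.50. The 41 mRp genes of 150 to 300 codons had medians of 0.59, −0.15 and −0.68, against −0.55, −0.57 and −0.94 for all genes of the class. The 16 mRp genes over 300 codons had medians of 1.03, 1.12 and 0.94, against −0.26, 0.14 and 0.19. At 48 and 72 h the mRp median lay above that of all genes in each class. At 24 h the all-gene median of both shorter classes was the −0.55 of genes unlisted in both pools. It does not describe measured genes of similar length there.

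**Figure D4:**
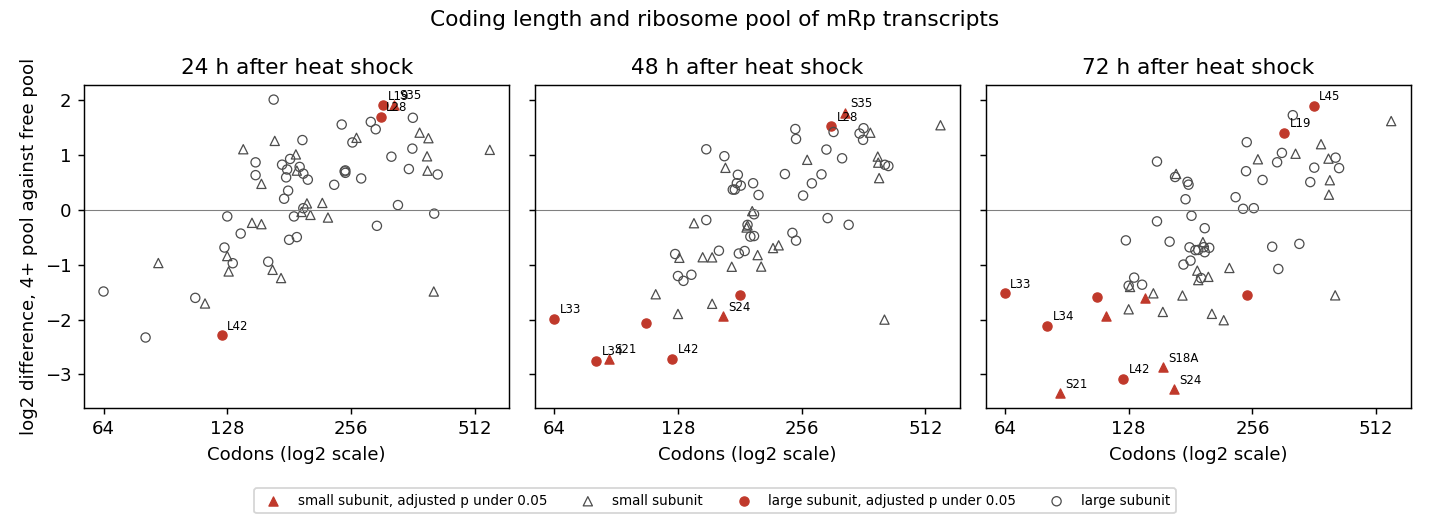
Log2 difference between the 4+ and the free pool against coding length in codons (log axis) for 71 mRp genes at 24, 48 and 72 h. Triangles are small-subunit and circles large-subunit genes, and filled red points are genes past the threshold. Short genes such as mRpS21, mRpL42 and mRpL34 lie low and mRpL45, mRpL19 and mRpL28 lie high.

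The change of the 4+ over free difference between 24 and 72 h was tested as an interaction. It was negative for 59 of 71 mRp genes. By subunit these were 25 of 26 small-subunit genes (subunit median −0.91) and 34 of 45 large-subunit genes (subunit median −0.60). Of all 10777 genes 5210 were negative, with a median of 0.07. That background includes genes unlisted in the pools of 24 h. The zero also moved with the scaling, with an all-gene median of 0.27 for total counts and −0.31 for median ratios. mRpS18C alone passed, as lower, and none as higher, against 5.84% and 0.603% of all genes. mRpS18C had 122 and 102 CPM in 4+ at 72 h, against 513 and 226 CPM in free. At 24 h it had 73.8 and 118 CPM in 4+, against 33.3 and 56.5 CPM in free. The interaction was −2.71 (SE 0.76, limma adjusted p = 0.0292), and the order of the pools turned over between the times in both replicates. It did not pass without any of 5 libraries, with adjusted p of 0.0812 to 0.226.

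Its paralogues had interactions of the same sign that did not pass in the fit of all 36 libraries. mRpS18A had 137 and 111 CPM in 4+ at 72 h, against 1261 and 643 CPM in free, and at 24 h 112 and 102 CPM against 118 and 140 CPM (interaction −2.61, limma adjusted p = 0.20). mRpS18B had 114 and 118 CPM in 4+ at 72 h, against 550 and 336 CPM in free, and at 24 h 82.6 and 52.6 CPM against 81.5 and 60.5 CPM (interaction −1.80, limma adjusted p = 0.459). In all 3 the free pool of 72 h lay above both free libraries of 24 h, and the 4+ pools of the times overlapped for mRpS18A and mRpS18C but not for mRpS18B. mRpL37 lay at the other end with 1.02, short of the threshold.

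Genes whose lysate level rose tended to be those whose 4+ over free difference dropped. Across 71 genes the change in lysate at 72 h against 0 h and the change of the 4+ over free difference had a Spearman correlation of −0.50 (Pearson −0.54). The measures come from separate libraries, and this is a description across genes. Of the 13 genes that rose in lysate at 72 h, mRpL10, mRpS18A, mRpS18C and mRpS21 were among the 10 lower in 4+ at that time, and the other 9 were not called lower. Of all genes 20.1% were lower in 4+ at 72 h. None of the 6 that fell in lysate was called in either direction.

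Among the other lists at 72 h, protein import genes had 1 higher and 17 lower in 4+ against free of 26 (median −2.27), and respiratory chain and ATP synthase genes 9 higher and 38 lower of 86 (median −1.54). Cytoplasmic ribosomal protein genes had none higher and 39 lower of 94 (median −1.36). Mitochondrial aminoacyl-tRNA synthetase genes had 2 higher and none lower of 15 (median 1.59), and spermatocyte genes 5 higher and none lower of 15 (median 1.18). The mRp median of −0.67 lay between them. Muscle genes had 10 of 14 lower.

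The position of cleavage and polyadenylation was read from the listed sites, given as the distance from the stop codon. The family used short 3′ ends. In lysate the most used site lay 27 to 208 nt after the stop codon, with a median of 56.5 nt, and within 100 nt for 66 of 72 genes. Counting single positions, the most used one was within 100 nt for 91.7% of mRp genes, against 30.4% of 9716 genes, whose median was 162 nt. At least 95% of the reads fell on 1 position for 80.6% of mRp genes, against 42.1% of all genes. The main site lay within 5 nt in lysate and gradient files for 70 of 71 genes.

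Few members had a choice of site. With positions joined within 50 nt, 45 of 72 genes had 1 site in lysate and 6 had at least 2 sites with 5% of reads or more. The change of the ratio of the site near the stop codon to the distal site could be tested for 11 genes in lysate. At 48 h 1 was called, against 31.2% of all genes tested, and at 72 h 2 were, against 25.1%.

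mRpL21 (FBgn0036853, 3L:19253290-19255061, minus strand), a conserved large-subunit protein, moved toward its distal site. It ends at 62 or 195 nt, and the distal share in replicates 1 and 2 was 36.6% and 42.8% at 72 h, against 3.30% and 18.3% at 0 h. The log2 ratio of near to distal reads changed by −2.77 (limma adjusted p = 0.0484). At the times between, replicates 1 and 2 had 6.75% and 28.2% at 16 h, 19.6% and 16.9% at 24 h, 26.4% and 25.95% at 32 h, and 27.9% and 38.3% at 48 h. Without replicate 1 of 0 h the change was −1.56 (limma adjusted p = 0.222).

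mRpL28 (FBgn0031660, 2L:4973976-4975316, plus strand), which also rose in level, moved toward its near site. It ends at 65 or 251 nt, and the distal share was 4.18% and 5.78% at 72 h, against 16.4% and 12.2% at 0 h. The log2 ratio changed by 1.67 (limma adjusted p = 0.0362), or by 1.42 without replicate 1 of 0 h (limma adjusted p = 0.126). Its share at 24 and 32 h was 11.9% to 17.4%, above both 72 h values. mRpL36 was called more near at 48 h, with a log2 change of 4.63 (limma adjusted p = 0.0267). That call rests on 69 distal reads in replicate 1 of 0 h, where the near site had 112 reads; the distal site was unlisted in both 48 h libraries and in replicate 2 of 0 h, so the size of the change depends on the value entered there.

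The other pairs among the most read members were not called. mRpS17, with sites at 67 and 171 nt, had distal shares of 6.93% and 7.51% at 72 h, against 6.62% and 18.6% at 0 h, and 22.3% and 16.1% at 24 h. mRpL39, with sites at 83 and 374 nt, had 10.99% and 4.79% at 72 h, against 9.09% in replicate 2 of 0 h; in replicate 1 of 0 h its distal site was unlisted, which means fewer than 20 reads, beside 418 near reads. mRpL16 had 3.58% and 5.20%, against 2.19% and 8.56%. For mRpS17 and mRpL16 the 72 h values lay between the 0 h replicates.

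In the gradient 23 mRp genes had a tested pair. The ratio in the 4+ pool against the free pool was called for none at 24 or 48 h in limma, against 4.56% and 1.38% of all genes. At an unadjusted p under 0.05 there were 4 and 2 mRp genes, with no all-gene count at that cut to set beside them. At 72 h 2 were called, against 3.93% of all genes. mRpL23, a conserved protein at the tunnel exit, with sites at 67 and 439 nt, had an unlisted distal site in both 4+ libraries at 72 h, which means fewer than 10 reads, beside 329 and 301 near reads. In the free pool it had 34 and 15 distal and 269 and 158 near reads. The log2 change of 2.79 (limma adjusted p = 0.0132) depends on the value entered for the unlisted site. mRpS21 was called toward its distal site at 118 nt (−4.16, limma adjusted p = 0.0132), on 25 distal reads in replicate 2 of the 4+ pool; the site was unlisted in the other libraries compared.

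**Figure D5:**
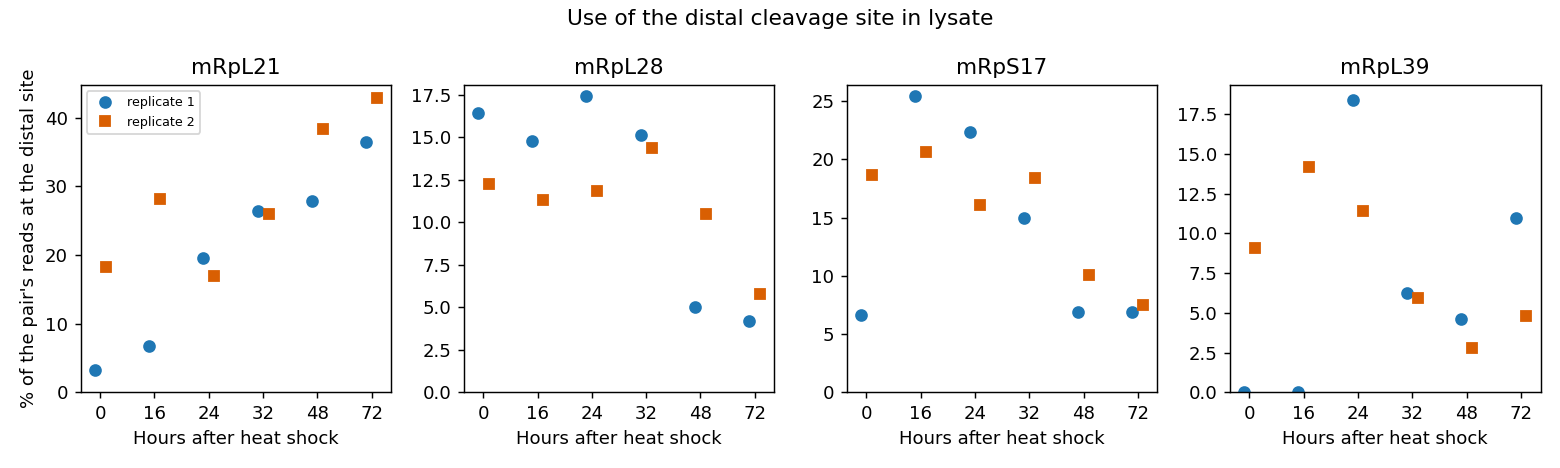
Share of reads at the distal site, in percent, in each lysate library by time for mRpL21, mRpL28, mRpS17 and mRpL39, each on its own vertical scale; points at 0 are libraries in which the distal site was unlisted. mRpL21 runs from 3.30% in replicate 1 at 0 h to 42.8% in replicate 2 at 72 h, and mRpL28 is lowest at 72 h apart from the 5.01% of replicate 1 at 48 h.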

How the data were processed

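Libraries were QuantSeq 3′ FWD, per the labels' protocols. The submitters' processing notes name Bowtie 0.12.8 and the build dm6. For each coding region the deposited files give positions of cleavage sites with read counts, packed as text in 1 column. Their unit was therefore treated as other than a plain count. In the gradient files 96.1% of minus-strand entries were keyed to a start codon. Distances of mRp genes on that strand were taken there from the annotated stop codon. Lysate files were not in dm6 coordinates for most genes, so sites were handled as distances from the stop codon, and gene positions came from the dm6 annotation (Ensembl BDGP6).

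Counts were summed per gene in Python 3.11.15. Levels were tested with limma 3.58.1 (voom, R 4.3.3), trimmed-mean scaling, a filter that kept genes seen in each library of some group, unlisted genes at 10 reads in lysate and 5 in fractions, and Benjamini-Hochberg adjustment over all genes at 0.05. The design had named a count test; limma was used because of the unit. Sites were joined within 50 nt, and a pair entered with a mean of at least 10 reads. Genes in the missing X stretches were treated as missing at 0 h. Scripts were tested on simulated data. Alternatives were other scalings, other values for unlisted genes, other filters, fewer libraries in the fit, a replicate block and leaving out each library.

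The members and lists were chosen with earlier results of these data known. Named genes were those with the largest changes at 72 h past the threshold, the highest and lowest levels and ranges, the extremes of 4+ over free at 72 h and of 4+ over 80S at 24 h, the most read site pairs and the earliest calls; others named are called genes of a comparison. Sequences were not used here. With 2 libraries per group, precision was limited by the spread between them, which may be partly technical.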

Additional observations from a re-analysis of the deposited data

Results flagged for a closer look

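The 4+ over free difference of mRpS18C differed between 24 and 72 h by −2.71 on the log2 scale (SE 0.76, limma adjusted p = 0.0292), the only mRp gene whose difference between these times passed a test of the interaction. The free pool had 513 and 226 CPM at 72 h, against 33.3 and 56.5 CPM at 24 h, and the 4+ pool had 122 and 102 CPM, against 73.8 and 118 CPM. Replicate 1 of the free pool at 72 h was the highest value, and without it the interaction was −2.12 (limma adjusted p = 0.226).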

How the results depend on the processing

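The number of called mRp genes depended on the processing. A scaling shifts every gene of a comparison alike, so it moves the calls but not the family's position relative to all genes. For the other alternatives the cause was not tested. Counts in this section are of mRp genes. The calls among all genes are given beside them for the scalings only. Counts under the other alternatives do not tell the family apart from all genes. With total counts the counts were 4, 7, 36 and 48 at 16, 24, 32 and 48 h against 0 h. They were 44 for 72 h against 48 h and 29, 29 and 28 for 4+ against free. For 4+ against 80S they were 14 at 48 h and 5 at 72 h, and 2 for the interaction. Of all genes 466, 671, 2646 and 5510 were then called at the 4 lysate times, and 3992 for 72 h against 48 h. In the gradient 1492, 2383 and 4269 of all genes were called for 4+ against free. The calls were 1275 and 1040 for 4+ against 80S, and 663 for the interaction. With median ratios the mRp counts were 5 at 32 h, 7 at 24 h and 21 at 72 h for 4+ against free, and 5 for the interaction. The calls among all genes were then 1402, 733, 3084 and 928. With unlisted genes at 0 reads the mRp counts were 2, 3 and 5 for 4+ against free, 3 at 24 h for 4+ against 80S and 0 for the interaction. Without the 60S pools they were 23, 30 and 38, then 15, 11 and 13, and 16. With only the groups compared they were 0 at 32 h, 3 at 48 h, 5 at 72 h and 40 for 72 h against 48 h, 21, 24 and 44 for 4+ against free, 12, 21 and 19 for 4+ against 80S, and 14 for the interaction.

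Leaving out 1 library gave 0 to 14, 0 to 27, 1 to 23, 7 to 31 and 11 to 42 at 16, 24, 32, 48 and 72 h against 0 h, and 3 to 5 for 72 h against 48 h. For 4+ against free it gave 0 at 24 h, 0 to 5 at 48 h and 4 to 7 at 72 h, for 4+ against 80S 1 to 2, 0 to 1 and 0 to 1, and for the interaction 0 to 1. For sites it gave 0 to 3 at 48 h and 0 to 4 at 72 h in lysate, and 0, 0 and 0 to 2 in the gradient. Joining sites within 25 nt left 1 call at 72 h in lysate.

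The labels do not say that a replicate number marks a shared batch. The correlations of same-numbered deviations ran from −0.14 to 0.42 in lysate, highest for 16 h against 0 h, and from −0.05 to 0.18 in the gradient, so no pairing common to the comparisons was found. The replicate block gave 0, 0, 3, 14 and 19 calls at the 5 later times and 12 for 72 h against 48 h, 4, 10 and 14 for 4+ against free, 6, 2 and 3 for 4+ against 80S, 1 for the interaction, and for sites 3 at 48 h and 1 at 72 h in lysate and 0, 0 and 2 in the gradient. With the numbers crossed, the counts at 24 and 72 h in lysate were 0 and 19. With the missing X stretches entered at 10 reads, chosen after seeing the data, the counts were 0, 0, 2, 19, 20 and 12.

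Over 1076 alternatives of single called genes 745 kept the call, 330 lost it and 1 reversed (mRpL28 at 72 h against 48 h with total counts, −0.025). Motifs in promoters and near cleavage sites were not analysed here.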
